A study of Rattus norvegicus with 6 samples.

Results

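The motile cilium axoneme genes are here the rows whose symbol begins with Cfap, Dnah, Dnai, Dnaaf, Rsph, Drc or Tekt followed by a digit. The rule uses only the symbol, but it was proposed with earlier results of these data known, and 57 of the 22062 protein-coding genes in the deposited table met the rule. They carry 56 symbols, since Cfap46 has 2 rows. The data are RNA-seq of hippocampus from Sprague Dawley rats, with 3 libraries labelled SPS (single prolonged stress) and 3 labelled Control. SPS rats were immobilised for 2 h, swam for 20 min in water near 24 °C with a 15 min rest, were anaesthetised until unconscious and went back to their cages. Control rats stayed in the home cage unhandled. The labels give neither the age nor the sex of the animals nor the time from stress to tissue, and they do not say whether a library is 1 animal, so p-values measure the spread between these libraries.

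A motile cilium beats because dynein arms, anchored on a ring of doublet microtubules, slide each doublet along its neighbour. Radial spokes carry signals from a central pair of microtubules to the arms, the nexin-dynein regulatory complex links the doublets, and tektins and other inner proteins line the inside of the doublet wall. In brain these parts are known mainly from the ependymal cells that line the ventricles and from choroid plexus epithelium, while most hippocampal neurons carry a single primary cilium without dynein arms. Dynein arms are assembled in the cytoplasm by a separate set of factors before they enter the cilium. Bulk tissue was measured, so fewer cells of a type and less RNA per cell cannot be told apart.

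No axoneme gene passed the test between SPS and Control at an adjusted p of 0.05 (edgeR quasi-likelihood test, Benjamini-Hochberg adjustment), and neither did any of the 12441 genes tested. DESeq2 and limma also called 0 genes. The adjusted p of each tested axoneme gene was 1.00 in edgeR, so the differences given below are values that did not pass the test, each with the standard error (SE) of its log2 fold change. At an unadjusted p under 0.05 in edgeR, 4 axoneme genes were found, all higher in SPS: Cfap99, Dnah12, Cfap43 and Cfap126. Over all genes tested 42 reached this level, a share of 0.338%, and 39 of them (0.313%) were higher in SPS. The count of 4 was 0 without SPS replicate 2, 0 without Control replicate 1 and 2 without Control replicate 2. Over all genes tested the counts in these fits were 19, 34 and 11. With same-numbered libraries as a block it was 3 (Cfap43, Cfap99 and Dnah12), while 172 of all genes tested (1.38%) reached this level. Of all 57 axoneme genes, 43 had a higher mean FPKM in SPS and 13 a lower one, and 1, Cfap58, was listed at 0 in every library. Over the 16710 genes with a read, 50.4% had a higher and 49.6% a lower mean FPKM in SPS.

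Depth differed between libraries, at 11148531, 4081184 and 5768628 reads in SPS replicates 1 to 3, and 11838770, 5321132 and 4786503 reads in Control replicates 1 to 3. SPS replicate 2 stood apart in 2 ways. Among the 10734 genes with a median above 5 CPM in the other libraries, 420 (3.91%) were listed at 0 in it, against 1 and 14 genes in the other SPS libraries and 0, 46 and 7 genes in the Control libraries. Its summed level of 15 choroid plexus markers was 34680 CPM, against 42.9 and 53.4 CPM in SPS replicates 1 and 3 and 29.9, 109.7 and 165 CPM in Control replicates 1 to 3. CPM here is reads per 1000000 after TMM scaling. Of 11 hippocampal neuron markers 9 were tested, with 3 positive and 6 negative log2 fold changes and a median of -0.06. Over all genes tested 47.9% were positive. Among these markers, Slc17a7 (a vesicular glutamate transporter) had 2261, 1057 and 2015 CPM in SPS and 2327, 1548 and 2062 CPM in Control. Wfs1 had 645, 512 and 378.5 CPM in SPS and 1043, 820 and 517 CPM in Control. Prox1, a granule cell factor, had 100.3, 66.4 and 437 CPM in SPS and 72.3, 5.68 and 419 CPM in Control. The counts over the axoneme genes and the values of the leading genes are therefore, in most cases, also given without SPS replicate 2 or without both libraries numbered 2.

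The axoneme genes were a small part of each library. Their summed level was 637, 809 and 519 CPM in SPS replicates 1 to 3 and 472, 347 and 554.5 CPM in Control replicates 1 to 3. This was 0.0630%, 0.0856% and 0.0501% of reads in SPS and 0.0455%, 0.0368% and 0.0527% in Control. The groups overlapped, because Control replicate 3 lay above SPS replicate 3. Only 25 of the 57 genes had a read in all 6 libraries.

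Of the 57, 38 passed the expression filter and entered the test, and 19 did not. Total reads alone did not decide this, since Dnah5, untested, had 141 and Cfap53, tested, had 75. The 19 held between 0 and 141 reads over all libraries, and 3 that had a read, Cfap157, Cfap58l1 and Rsph4a, had fewer than 10. The other untested genes were Cfap46 (its second row), Cfap73, Cfap77, Cfap161, Cfap206, Cfap221, Dnaaf1, Dnah3, Dnah5, Dnah17, Dnai2, Rsph6a, Tekt2, Tekt3 and Tekt4. Mean FPKM was higher in SPS for 14 of the untested genes and lower for 4. Among the 38 tested genes, 29 had a positive and 9 a negative log2 fold change, with a median of 0.83 and a range of -0.60 to 3.33. Over all genes tested 47.9% were positive and the median was -0.02. A log2 fold change of at least 1 was seen in 16 of the 38 and one of -1 or less in 0, against 3.65% and 2.72% of all genes tested. The shares over all genes tested were not matched to the 38 in level, and many of the 38 had few reads. A gene could pass the filter through its high group alone, so the count over the 38 is a description. With no filter on low counts, 43 of the 56 genes with a read were positive (76.8%, against 46.6% of all genes with a read).

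**Figure D1:**
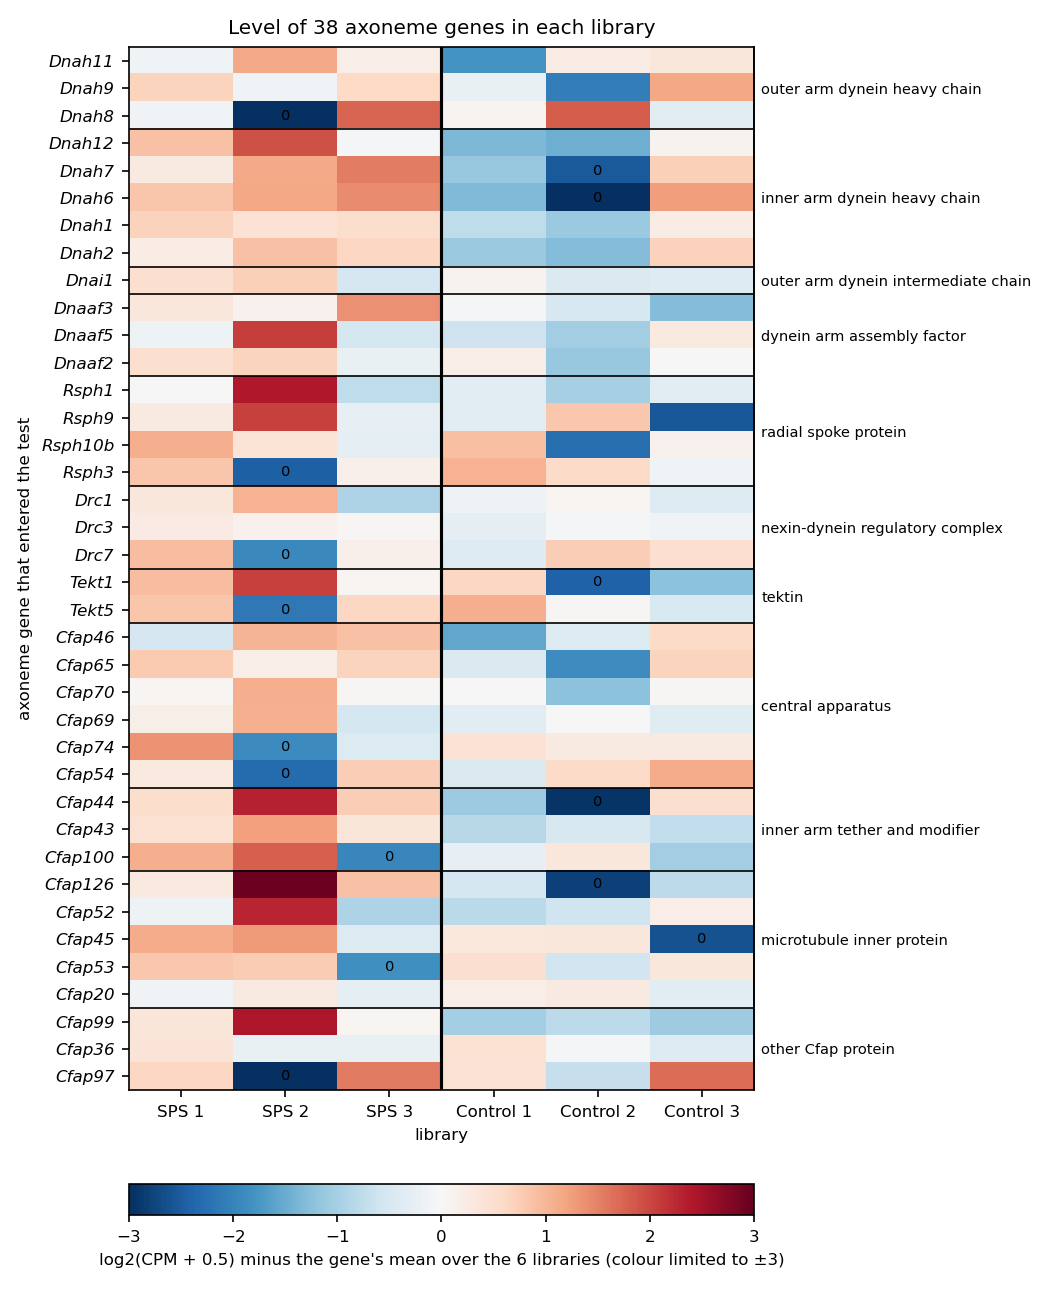
Level of the 38 tested axoneme genes in each library, as log2(CPM + 0.5) minus the gene's mean over the 6 libraries (colour, limited to 3 in either direction), with genes in rows by role, SPS libraries left of the black line and Control libraries right of it. A 0 in a cell marks a gene listed at 0 in that library. SPS replicate 2 holds the highest value for 21 genes and is listed at 0 for 7. Control replicate 2 is listed at 0 for 5.

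Cfap99 had the smallest p of the axoneme genes. It had 4.99, 22.5 and 3.95 CPM in SPS replicates 1 to 3, against 1.58, 1.95 and 1.54 CPM in Control replicates 1 to 3. All 3 SPS libraries lay above all Control libraries, and SPS replicate 2 was far above the other 2. The log2 fold change was 2.61 ± 0.91 (SE, n = 3 each), with an adjusted p of 1.00 in the edgeR test. Without both libraries numbered 2 it was 1.5 ± 0.70.

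Dnah12, a heavy chain of the inner dynein arms, had 28.4, 57.9 and 14.6 CPM in SPS and 5.60, 5.15 and 16.3 CPM in Control. The groups overlapped, since Control replicate 3 was above SPS replicate 3. The log2 fold change was 1.91 ± 0.70 (edgeR adjusted p = 1.00), and 0.98 ± 0.71 without both libraries numbered 2. Per length it stood at 2.63 ± 1.88 FPKM in SPS and 0.647 ± 0.402 FPKM in Control (SD, n = 3 each).

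Cfap43, which with Cfap44 tethers an inner dynein arm to the doublet in ciliates and algae, varied least of the 4 when libraries were left out. It had 11.3, 19.7 and 10.6 CPM in SPS and 4.29, 5.68 and 4.62 CPM in Control, with no overlap. The log2 fold change was 1.51 ± 0.56 (edgeR adjusted p = 1.00). Leaving out 1 library at a time or both numbered 2, it stayed between 1.18 and 1.66.

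Cfap126, known as Flattop, an inner protein of the doublet that acts in the placing of basal bodies in mouse multiciliated cells, had the largest log2 fold change of the 38 genes. It had 3.81, 26.4 and 5.93 CPM in SPS, against 1.93, 0 and 1.54 CPM in Control. The groups did not overlap, and Control replicate 2 was listed at 0. The log2 fold change was 3.33 ± 1.32 (edgeR adjusted p = 1.00), and 1.44 ± 0.71 without both libraries numbered 2.

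**Figure D2:**
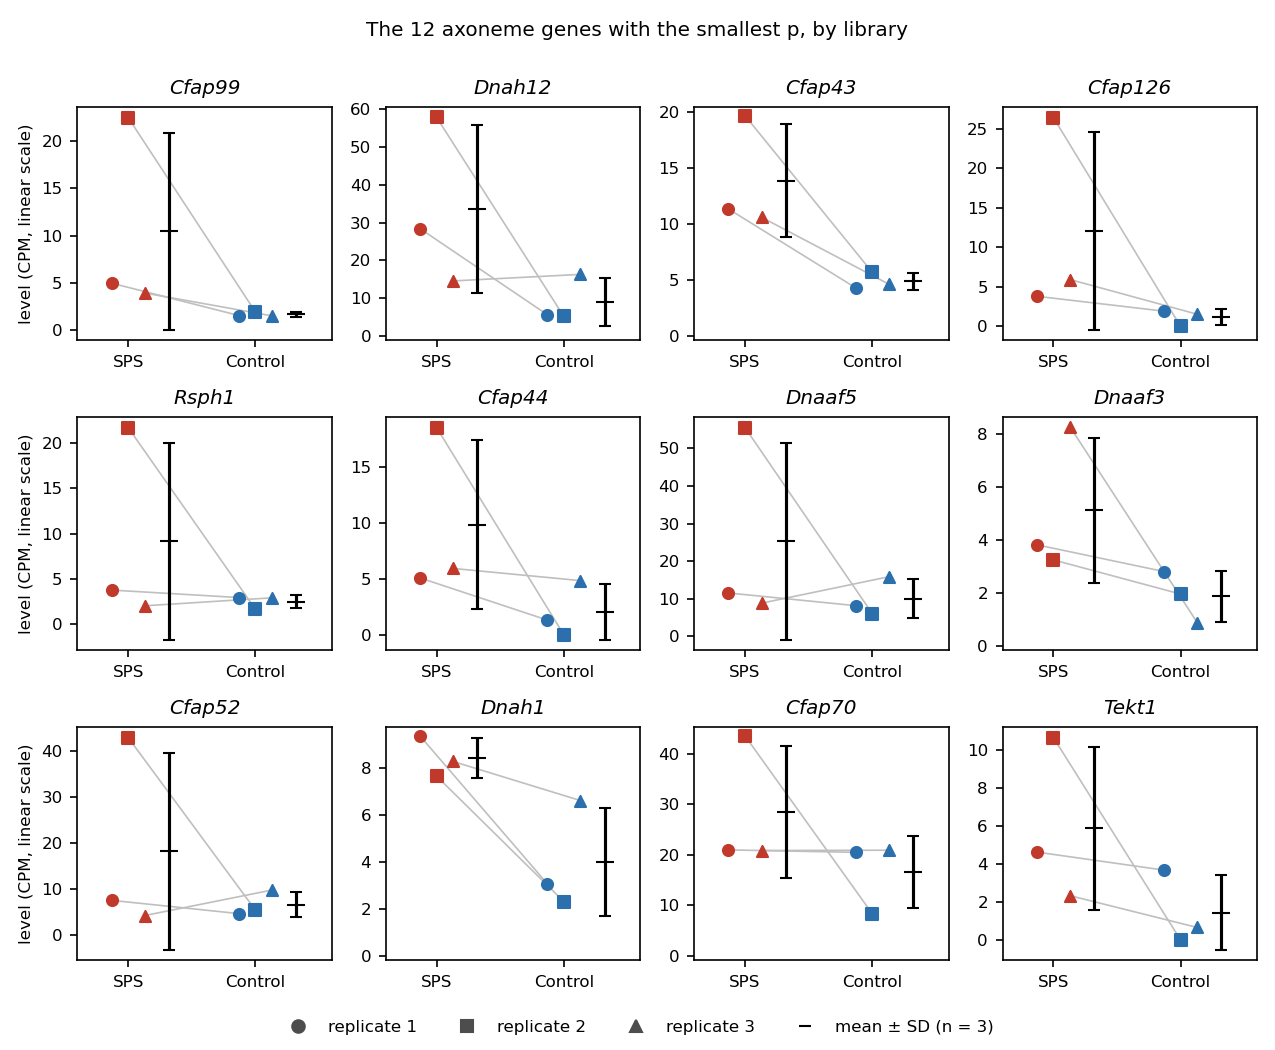
CPM on a linear scale for the 12 tested axoneme genes with the smallest p, with SPS libraries left of Control libraries; marker shape gives the replicate number, grey lines join libraries of the same number and black bars are mean ± SD (n = 3). SPS replicate 2 is the highest point in most panels, while Dnaaf3 peaks in SPS replicate 3 and Dnah1 in SPS replicate 1.

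The deposited table places Cfap99 on chromosome 14 (81687020 to 81725181, minus strand), Dnah12 on chromosome 16 (2379479 to 2534131, plus strand), Cfap43 on chromosome 1 (267511522 to 267598639, minus strand) and Cfap126 on chromosome 13 (89480057 to 89495949, plus strand). Its build is not given in the sources used here. Promoters of these 4 genes are shown because they are the ones with the smallest p, and because transcription factors of the RFX family and the forkhead factor Foxj1 are known to drive axoneme genes in multiciliated cells. RefSeq promoters on GRCr8, each of 300 bases from 250 before to 50 after a start, were found for 46 of the 56 symbols. The windows lie at chr14:80692704-80693003 (minus strand), chr16:1944502-1944801 (plus), chr1:256653653-256653952 (minus) and chr13:86058892-86059191 (plus), and capitals mark a motif match.
Cfap99: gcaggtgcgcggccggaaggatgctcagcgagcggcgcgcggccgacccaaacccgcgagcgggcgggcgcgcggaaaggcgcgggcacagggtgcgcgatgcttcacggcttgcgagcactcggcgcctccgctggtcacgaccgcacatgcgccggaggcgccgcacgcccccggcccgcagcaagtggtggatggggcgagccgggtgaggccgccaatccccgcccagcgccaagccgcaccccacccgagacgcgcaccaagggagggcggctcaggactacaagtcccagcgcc
Dnah12: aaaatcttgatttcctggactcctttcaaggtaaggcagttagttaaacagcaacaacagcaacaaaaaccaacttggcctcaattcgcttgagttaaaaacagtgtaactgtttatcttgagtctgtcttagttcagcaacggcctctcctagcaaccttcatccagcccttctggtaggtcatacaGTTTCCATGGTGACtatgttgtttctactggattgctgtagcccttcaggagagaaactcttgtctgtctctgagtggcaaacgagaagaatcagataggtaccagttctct
Cfap43: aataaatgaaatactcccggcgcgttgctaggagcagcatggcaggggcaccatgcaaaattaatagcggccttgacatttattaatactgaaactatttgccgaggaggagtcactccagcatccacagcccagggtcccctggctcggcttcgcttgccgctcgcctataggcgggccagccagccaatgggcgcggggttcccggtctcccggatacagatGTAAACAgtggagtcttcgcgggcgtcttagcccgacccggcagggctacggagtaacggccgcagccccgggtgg
Cfap126: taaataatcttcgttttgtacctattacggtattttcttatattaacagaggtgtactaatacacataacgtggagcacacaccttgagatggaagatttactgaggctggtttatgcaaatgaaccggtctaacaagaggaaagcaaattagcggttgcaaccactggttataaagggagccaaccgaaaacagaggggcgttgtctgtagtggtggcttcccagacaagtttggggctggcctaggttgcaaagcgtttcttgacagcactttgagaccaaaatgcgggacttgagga

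The capitals in Dnah12 are an RFX X-box, written as GTNNCC, then NNGGN, then AAC, and read here on the opposite strand. The capitals in Cfap43 are a forkhead core, written GTAAACA, in 2 of the 4 windows RefSeq lists for that gene. Both strands were searched, and the motifs share no overlapping match in these windows. The X-box was found in 4 of 74 axoneme gene windows (5.41%) and in 1.28% of all 33469 windows. The axoneme genes with an X-box were Dnaaf2, Dnaaf5, Dnah12 and Dnah2. The forkhead core was found in 4 of the 74 windows (5.41%), from Cfap20, Cfap43 and Tekt3, and in 3.78% of all windows. A match is a run of letters, and windows without one, such as those of Cfap99 and Cfap126, say nothing about the factors.

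No dynein heavy chain had an adjusted p under 0.05 (edgeR), and the inner and outer arm chains were not tested against each other. All 5 tested inner arm heavy chains (Dnah1, Dnah2, Dnah6, Dnah7 and Dnah12) had positive log2 fold changes, with a median of 1.33, where 47.9% of all genes tested were positive. Only Dnah1 did not overlap between the groups, and in pair 3 the difference was positive for 3 of the 5 and negative for 2, with a median of 0.17. Their summed level with the untested Dnah3 was 59.6, 100.7 and 57.8 CPM in SPS and 14.4, 10.5 and 53.0 CPM in Control. All 3 SPS libraries lay above all Control libraries, with Control replicate 3 close to SPS replicates 1 and 3. Dnah1 had 9.35, 7.64 and 8.26 CPM in SPS and 3.06, 2.31 and 6.60 CPM in Control. These groups did not overlap, and the log2 fold change of Dnah1 was 1.08 ± 0.69. Dnah6 had 8.44, 10.7 and 12.9 CPM in SPS and 1.49, 0 and 11.4 CPM in Control, so Control replicate 3 lay within the SPS range and Control replicate 2 was listed at 0. Dnah2 had 9.71, 15.5 and 12.9 CPM in SPS and 3.50, 3.02 and 13.6 CPM in Control, which overlapped, again through Control replicate 3. Without both libraries numbered 2 all 5 stayed positive, with a median of 0.87.

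Dnah9, an outer arm heavy chain of the distal part of the cilium in human airway, had the highest level of the heavy chains, at 6.55 ± 1.51 FPKM in SPS and 5.06 ± 4.41 FPKM in Control. It had 112.5, 65.5 and 107 CPM in SPS and 60.2, 16.3 and 158 CPM in Control. The Control libraries spanned the whole SPS range, and the log2 fold change was 0.29 ± 0.72, and -0.00107 without both libraries numbered 2. Dnah11 had 6.35, 16 and 8.08 CPM in SPS and 1.66, 8.16 and 9.02 CPM in Control, with a log2 fold change of 0.69 ± 0.79, and 0.21 without SPS replicate 2. Dnah8, known from sperm, had 3.90, 0 and 15.4 CPM in SPS and 4.46, 16.1 and 3.30 CPM in Control, with neither group higher throughout. Dnah5 and Dnah17 were not tested. Dnah5 had 1.63, 0 and 8.80 CPM in SPS and 0.175, 0 and 15.8 CPM in Control. Most of its reads came from the libraries numbered 3. Dnah17 had 2.18, 0 and 0.539 CPM in SPS and 1.05, 0 and 11.0 CPM in Control. The 5 outer arm chains summed to 127, 81.5 and 140 CPM in SPS and 67.6, 40.6 and 197 CPM in Control, which overlapped. With no filter on low counts, 2 of the 5 had a positive log2 fold change, against 46.6% of all genes with a read.

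Heavy chain transcripts are long, and long transcripts of other genes also differed in level between libraries. The median deviation from the gene's 6-library mean was 0.46, 1.01 and 0.61 (log2) for the 8 tested heavy chains in SPS and -1.13, -1.39 and 0.53 in Control. For 110 other genes with an effective length of at least 10000 bases, it was -0.02, -0.86 and 1.11 in SPS and -0.57, -0.66 and 1.13 in Control. Libraries numbered 3 were high for both sets, while SPS replicate 2 was high for the heavy chains and low for the other long genes. The difference SPS minus Control in pair 1 had a median of 1.43 for the heavy chains and 0.52 for the other long genes, 104 of which were higher in SPS. In pair 2 it was 2.08 and -0.22, and in pair 3 it was 0.05 and -0.05. The part of transcript length in the heavy chain values was not tested. The 30 tested axoneme genes that are not heavy chains had a median log2 fold change of 0.70, with 22 positive.

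Of the outer arm intermediate chains, Dnai1 had 4.45, 5.32 and 1.98 CPM in SPS and 3.33, 2.13 and 2.20 CPM in Control, which overlapped, with a log2 fold change of 0.61 ± 0.83, and 0.20 without both libraries numbered 2. Dnai2 was not tested, at 0.998, 3.01 and 1.26 CPM in SPS and 1.05, 2.66 and 0 CPM in Control. Neither chain separated the groups. The dynein arm assembly factors had 3 tested genes, all with positive log2 fold changes. Dnaaf3 had 3.81, 3.24 and 8.26 CPM in SPS and 2.80, 1.95 and 0.880 CPM in Control, with no overlap and the highest value in SPS replicate 3. Its log2 fold change was 1.42 ± 0.88 and 1.62 without both libraries numbered 2, and its locus overlaps that of Tnni3. Dnaaf5 had 11.5, 55.6 and 8.80 CPM in SPS and 8.14, 6.03 and 15.8 CPM in Control. Only SPS replicate 2 stood outside the Control range, and the log2 fold change of 1.34 ± 0.81 became -0.24 without both libraries numbered 2. Dnaaf2 had 16.5, 18.8 and 9.88 CPM in SPS and 13.4, 4.97 and 11.7 CPM in Control, which overlapped, with a log2 fold change of 0.58 ± 0.57, and 0.061 without both libraries numbered 2.

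Of the radial spoke genes 4 of 7 were tested, 3 of them with a positive log2 fold change, and the highest library of Rsph1 and Rsph9 was SPS replicate 2. Rsph1, a spoke head protein, had 3.72, 21.8 and 1.98 CPM in SPS and 2.89, 1.6 and 2.86 CPM in Control. SPS replicate 3 lay within the Control range, and the log2 fold change of 1.88 ± 1.03 became -0.02 without both libraries numbered 2. Rsph9, another head protein, had 7.62, 27.6 and 5.21 CPM in SPS and 4.82, 11.4 and 0.660 CPM in Control, with overlapping groups. Its log2 fold change was 1.25 ± 1.04, 0.20 without SPS replicate 2 and 1.15 without the pair numbered 2. Rsph10b had 52.0, 32.2 and 20.1 CPM in SPS and 45.5, 4.61 and 26.6 CPM in Control. Its groups overlapped, and the log2 fold change of 0.44 ± 0.76 became -0.02 without both libraries numbered 2. Rsph3, a stalk protein, was the most negative of the 38 genes at -0.60 ± 1.28, with 4.36, 0 and 2.52 CPM in SPS and 5.08, 3.55 and 1.98 CPM in Control. Its low SPS mean rests on the 0 listed in SPS replicate 2. Over all 7 radial spoke genes, mean FPKM was higher in SPS for 5 and lower for 2, Rsph3 and the untested Rsph6a.

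The nexin-dynein regulatory complex gave 3 tested genes, with a median log2 fold change of 0.28. Drc3 had 13.9, 12.7 and 11.8 CPM in SPS and 9.63, 11.4 and 10.8 CPM in Control. The groups did not overlap, but the gap between them was small, with a log2 fold change of 0.28 ± 0.45. Drc1, which anchors the complex on the doublet, had 18.6, 30.6 and 7.36 CPM in SPS and 13, 15.3 and 11.0 CPM in Control, and these overlapped. Its log2 fold change was 0.52 ± 0.58, and -0.00498 without SPS replicate 2. Drc7 was listed at 0 in SPS replicate 2 and was between 0.963 and 3.08 CPM in the other libraries. The tektins, filament proteins inside the doublet, gave 2 tested genes. Tekt1 had 4.63, 10.7 and 2.33 CPM in SPS and 3.68, 0 and 0.660 CPM in Control, with overlap between SPS replicate 3 and Control replicate 1 and a log2 fold change of 1.95 ± 1.39. This value was smaller without SPS replicate 2, at 1.19, and without the pair numbered 2, at 0.62. Tekt5, known from sperm, had 3.45, 0 and 2.87 CPM in SPS and 4.20, 1.77 and 1.10 CPM in Control, with no separation. Tekt3, untested at 57 reads, had 1.36, 4.86 and 1.62 CPM in SPS and 0.438, 1.06 and 0.220 CPM in Control, which did not overlap. Tekt2, untested at 71 reads, went the other way, with a mean of 1.025 CPM in SPS and 2.346 CPM in Control. Of the 5 tektins in the table, mean FPKM was higher in SPS for 3 and lower for 2.

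The central apparatus gave 6 tested rows, 4 of them positive, with a median log2 fold change of 0.70. Cfap70 had 21.0, 43.5 and 20.8 CPM in SPS and 20.5, 8.34 and 20.9 CPM in Control. Replicates 1 and 3 were level between the groups and all of the difference lay in replicate 2, where SPS was high and Control low. The log2 fold change was 0.77 ± 0.53 with all libraries and -0.00432 without both numbered 2. Cfap54 and Cfap74 were listed at 0 in SPS replicate 2 and had negative log2 fold changes of -0.57 and -0.06. Of the tether genes, Cfap44 had 5.08, 18.5 and 5.93 CPM in SPS and 1.31, 0 and 4.84 CPM in Control, with no overlap and a log2 fold change of 2.27 ± 1.33. Without both libraries numbered 2 it was 0.86.

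Among the inner proteins of the doublet, Cfap52 had 7.44, 42.8 and 4.13 CPM in SPS and 4.55, 5.32 and 9.68 CPM in Control. Only SPS replicate 2 lay above the Control range, and the log2 fold change of 1.47 ± 0.92 became -0.29 without both libraries numbered 2. The 2 axoneme genes of highest level per length were level between the groups. Cfap36, a binding partner of the small GTPase Arl3 of the primary cilium, had 74.7 ± 19.2 FPKM in SPS and 76.0 ± 23.4 FPKM in Control (SD, n = 3 each). Cfap20, at the inner junction of the doublet, had 44.8 ± 11.2 FPKM in SPS and 46.7 ± 12.3 FPKM in Control. Their log2 fold changes were -0.05 ± 0.37 and -0.09 ± 0.34, both within the spread of the replicates. The next highest over all libraries were Rsph9 at 11.4 FPKM and Rsph10b at 9.82 FPKM.

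Loci of 7 axoneme genes (Cfap157, Cfap97, Dnaaf3, Dnah9, Dnah11, Dnah17 and Rsph9) overlap another locus in the table. Whether their counts share reads with the neighbour was not tested, since the use of strand in counting is not given in the sources used here.

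By library, 21 of the 38 tested genes were highest in SPS replicate 2, against 7 and 3 in SPS replicates 1 and 3 and 3, 1 and 3 in Control replicates 1 to 3. Over all genes tested, 25.4% were highest in SPS replicate 2. In 7 genes every SPS library lay above every Control library (Cfap126, Cfap43, Cfap44, Cfap99, Dnaaf3, Dnah1 and Drc3), and in 0 every SPS library lay below. Over all genes tested these shares were 1.54% and 1.4%. Over all 57 axoneme genes the first count was 8, with Tekt3 added, against 1.5% of all genes with a read.

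Within same-numbered pairs, the median difference SPS minus Control in log2(CPM + 0.5) over the 38 genes was 0.63 in pair 1, 1.44 in pair 2 and 0.00 in pair 3. In pair 1, 33 genes were higher in SPS and 5 lower, where 50.7% of all genes tested were higher. In pair 2, 30 were higher and 8 lower, against a share of 44.9% higher. The 8 lower ones were the 7 listed at 0 in SPS replicate 2 (Dnah8, Rsph3, Drc7, Tekt5, Cfap74, Cfap54 and Cfap97) and Cfap36. Another 5, all higher in SPS, were listed at 0 in Control replicate 2 (Cfap126, Cfap44, Dnah6, Dnah7 and Tekt1). Over all 12441 genes tested, 988 were listed at 0 in SPS replicate 2 and 200 in Control replicate 2. In pair 3 the genes divided evenly, with 19 higher and 19 lower, against a share of 50.2% higher.

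Over all 57 genes, pair 1 had 49 higher in SPS, 6 lower and 2 equal, pair 2 had 37 higher, 11 lower and 9 equal, and pair 3 had 27 higher, 24 lower and 6 equal. The shares higher among all genes with a read were 51.1%, 37.6% and 45.1%. Across all 3 pairs, 16 of the 57 were higher in SPS each time and 0 were lower each time, against 9.55% and 11.1% of all genes with a read. Axoneme genes were thus more often higher than lower in SPS in the pairs numbered 1 and 2, and near evenly divided in pair 3.

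**Figure D3:**
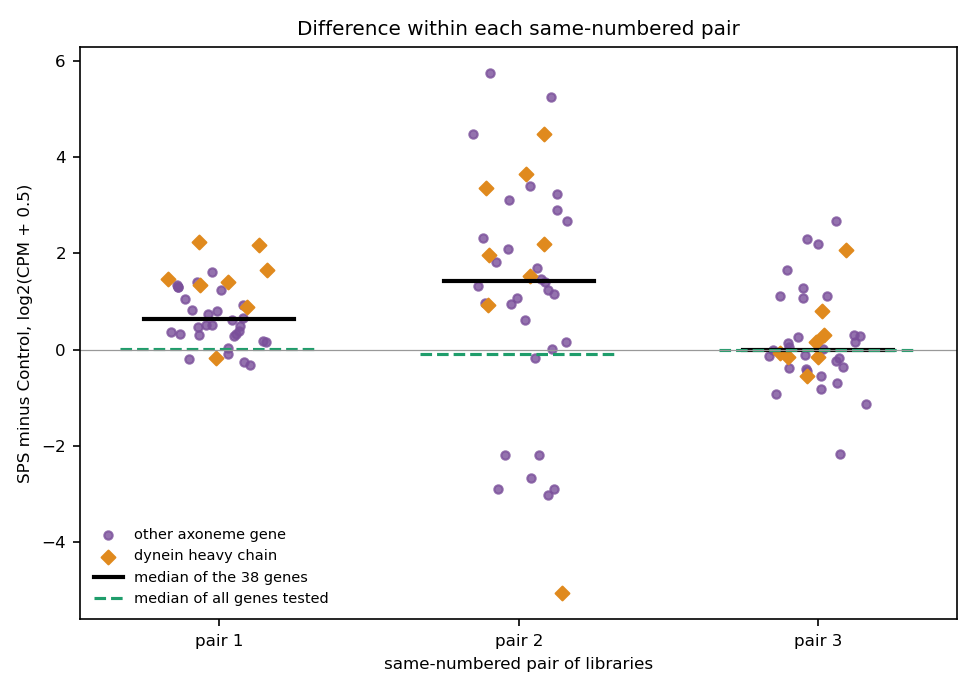
Difference SPS minus Control in log2(CPM + 0.5) within each same-numbered pair, 1 point per tested axoneme gene (38), with dynein heavy chains as orange diamonds, the median of the 38 as a black line and the median of all genes tested as a dashed line. The medians of the 38 are 0.63, 1.44 and 0.00 in pairs 1 to 3.

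Without both libraries numbered 2, 7 genes turned from positive to negative and 5 from negative to positive, among the 37 genes tested both ways. A further 21 were positive both ways and 4 negative both ways. The size of the fold change was smaller for 28 of the 37. The genes that turned negative were Cfap52, Cfap53, Cfap70, Dnaaf5, Dnah9, Rsph1 and Rsph10b. In this fit 42 axoneme genes were tested, 29 had a positive log2 fold change, and the median was 0.42, where 46.5% of all genes tested were positive. No axoneme gene reached an unadjusted p under 0.05 (edgeR), against 4 with all libraries, and 11 of all genes tested did (0.0842%). With the remaining same-numbered libraries as a block, 33 of the 42 were positive, against 51.4% of all genes tested. In that fit 3 axoneme genes (Cfap43, Dnah12 and Dnah6) had an unadjusted p under 0.05, against 3.06% of all genes tested, and 1 gene in all (0.00766%), no axoneme gene, had an adjusted p under 0.05 (edgeR). Without SPS replicate 2 alone, 33 of 43 were positive, with a median of 0.39. The count of all 57 genes with a higher mean FPKM in SPS was 48 without the pair, with 8 lower, where 55.4% of all genes with a read were higher. The count of the 57 in which the groups did not overlap, with SPS higher, was 13 without the pair, where the share of all genes with a read was 6.87%.

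**Figure D4:**
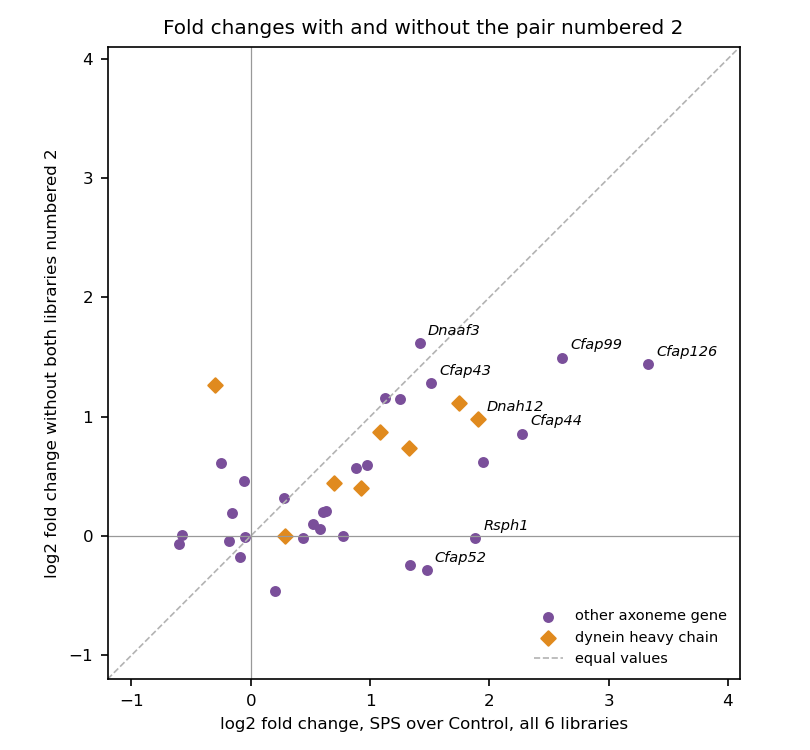
Log2 fold change of SPS over Control with all 6 libraries (x axis) and without both libraries numbered 2 (y axis) for 37 axoneme genes tested both ways, with dynein heavy chains as orange diamonds and a dashed line of equal values. Cfap43, Cfap45, Cfap99, Cfap126, Dnaaf3, Dnah7 and Rsph9 are above 1 on both axes, while Rsph1 and Cfap52 are among those above 1 on the x axis and below 0 on the y axis.

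Other genes of the motile axoneme were also more often higher than lower in SPS. Their list shares no symbol prefix with the rule and was chosen with earlier results of these data known. Of 83 named, 67 were in the table and 40 were tested, with 35 positive and 5 negative and a median log2 fold change of 0.96. Over all genes tested 47.9% were positive. A gene could pass the filter through its high group alone. With no filter on low counts, 55 of 64 were positive (85.9%, against 46.6% of all genes with a read). None had an adjusted p under 0.05 (edgeR), and 32 of the 40 were highest in SPS replicate 2, against 25.4% of all genes tested. In 5 of the 40 every SPS library lay above every Control library, against 1.54% of all genes tested. Ccdc40, which sets the spacing of arms and spokes along the doublet, had 5.08, 42.1 and 3.41 CPM in SPS and 1.66, 0 and 2.20 CPM in Control, with no overlap. Without both libraries numbered 2 the median of the list was 0.32, and its medians within pairs 1 to 3 were 0.59, 1.72 and -0.11. Dynein assembly factors outside the rule had 9 tested of 14 in the table, 6 of them positive, with a median of 0.16.

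Intraflagellar transport genes and primary cilium genes had medians closer to 0. The intraflagellar transport genes, which carry cargo along motile and primary cilia alike, had 32 of 32 tested, with 18 positive, 14 negative and a median log2 fold change of 0.06. Primary cilium and BBSome genes had 40 of 42 tested, with 26 positive and a median of 0.17. Over all genes tested 47.9% were positive. None of either list had an adjusted p under 0.05 (edgeR), and the difference between these lists and the axoneme genes was not tested.

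**Figure D5:**
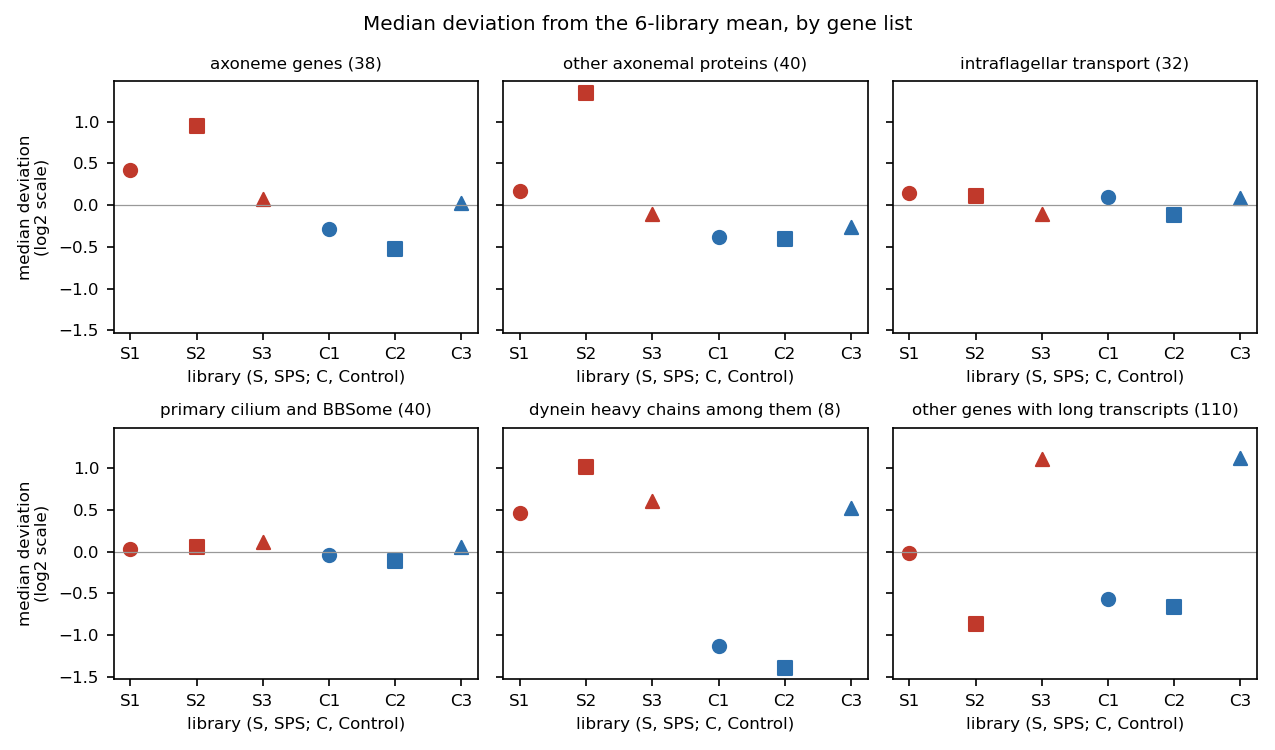
Median deviation from the 6-library mean of log2(CPM + 0.5) for 6 sets of tested genes (number of genes in each panel title), with SPS libraries S1 to S3 in red left of Control libraries C1 to C3 in blue. SPS replicate 2 is at 0.94 for the axoneme genes and 1.35 for the other axonemal proteins, whereas the intraflagellar transport and primary cilium sets stay near 0.

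Genes listed as transcription factors of multiciliated cells ranged from no read in any library to moderate levels. Of 21 named, 17 were in the table and 11 were tested, with 8 positive and a median log2 fold change of 0.21. Rfx2 had 6.08, 18.8 and 3.05 CPM in SPS and 5.51, 7.63 and 9.02 CPM in Control, which overlapped, with a log2 fold change of 0.33 ± 0.77, and -0.68 without SPS replicate 2. Rfx3 had 23.2, 19.4 and 120.5 CPM in SPS and 6.57, 3.90 and 149 CPM in Control, so that both libraries numbered 3 were high and the groups overlapped. Mcidas, a switch for the multiciliated fate, was listed at 0 in every library, and Gmnc, which acts before it, had 34 reads in all. Ccno and Foxn4, from the same list, had 1 read each. Foxj1 was not analysed here.

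Markers of ciliated cells were measured beside the axoneme genes. Of 16 ependymal markers 15 were in the table and 9 tested, with 6 positive and a median log2 fold change of 1.81, and 0.28 without both libraries numbered 2. Their summed level was 1760, 1654 and 1328 CPM in SPS and 1752, 1719 and 1240 CPM in Control, most of it from S100b, which astrocytes also express, and the groups overlapped. Several of these markers are themselves ciliary genes, and Ak7, Dynlrb2, Meig1 and Spag17 are also on the list of other axonemal proteins. Of the 9 tested, 7 were highest in SPS replicate 2, against 25.4% of all genes tested, and 1 each in Control replicates 1 and 2. Calml4 had 9.07, 51.9 and 6.29 CPM in SPS and 9.80, 0.532 and 3.08 CPM in Control, highest in SPS replicate 2. Vim had 47.6, 214 and 89.5 CPM in SPS and 39.1, 336 and 43.6 CPM in Control, highest in Control replicate 2.

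The summed level of choroid plexus markers was far higher in SPS replicate 2 than in the other 5 libraries. Ttr, the transport protein that choroid plexus secretes, had 28.2, 31250 and 31.8 CPM in SPS and 17.2, 22.9 and 113 CPM in Control. All 8 tested of 15 listed markers were positive with all libraries, with a median log2 fold change of 4.11, and the median was -0.64 without SPS replicate 2. Otx2, a defining factor of this epithelium, was listed at 0 in every library. Between the libraries numbered 1, the tested axoneme genes had a median log2 difference of 0.63. On the same scale the 8 tested choroid plexus markers had a median of 0.42, with 6 higher in SPS and 2 lower. The summed choroid plexus level in these libraries was 42.9 CPM in SPS and 29.9 CPM in Control. The part of choroid plexus or ependymal cells in the axoneme values was not tested.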

How the data were processed

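Sequencing measured RNA in 6 rat hippocampus libraries, 3 SPS and 3 Control. Ribosomal RNA was removed and stranded libraries were made and read for 150 cycles, per the labels' protocols. CASAVA 1.8 and HISAT2 are named in the submitters' processing notes, which also list hg19, a human build, while the genes carry rat Ensembl identifiers. The quantifier, rat build, annotation and strand setting are not given in the sources used, so the deposited coordinates carry no build.

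The authors deposited FPKM values (a level per transcript length and depth) and estimated counts for each gene, per the file headers. The deposited estimated counts were not whole, but 99.3% to 99.6% of those above 0 in a library were multiples of 1 step, to within 0.05 reads, and dividing by it gave whole reads and the depth. The counts as deposited, rounded, were an alternative.

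The reads were tested with edgeR 4.0.16 in R 4.3.3 (TMM, the tool's expression filter, quasi-likelihood fit on group, 2-sided p, Benjamini-Hochberg adjustment over 12441 genes) and tested on simulated data. CPM was computed here with TMM library sizes, and log2 differences use log2(CPM + 0.5). The standard error is the size of the log2 fold change divided by the square root of F. DESeq2 1.42.0 and limma 3.58.1 on log2(FPKM + 1) or log2(FPKM + 0.1), for genes of mean FPKM of at least 0.5, were alternatives, as were other filters and scalings, leaving out libraries, and a replicate block. Fold changes on the log2(FPKM + pseudocount) scale understate the change of low genes. Same-numbered libraries deviated together from their group means (correlation across genes 0.379, 0.326 and 0.632 for numbers 1 to 3). The correlations were -0.455 to 0.129 for unlike numbers. Deviations within a group cancel out, so high values for like numbers go with low ones for unlike numbers. The numbers, which come from the sample titles, were used for the pair differences and the replicate block. The main edgeR fit was on group only and did not use them. The labels do not say what a number marks.

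The members and the 9 other gene lists were chosen with earlier results of these data known. No list was tested. Genes named were the 12 tested members of smallest p, the 2 of highest mean FPKM for each of the 7 symbol prefixes, and Foxj1, Rfx2, Rfx3, Mcidas, Gmnc, Ttr, Clic6 and Prox1; other genes named were chosen after their values were seen, as was the set of long transcripts. Clic6 had 2.81, 659 and 3.41 CPM in SPS and 1.66, 1.60 and 7.26 CPM in Control. Sperm genes outside the rule, a further list, had 1 of 16 tested and summed to between 4.63 and 11.7 CPM a library. Hippocampal neuron markers had 9 of 11 tested, 3 of them positive, with a median log2 fold change of -0.06.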

Additional observations from a re-analysis of the deposited data

How the results depend on the processing

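The median log2 fold change of the tested axoneme genes was positive under every alternative run, between 0.39 without SPS replicate 2 and 0.94 with no filter on low counts, and no axoneme gene had an adjusted p under 0.05 in any of them. With the replicate block it was 0.83, with 28 of 38 positive, and Cfap126 no longer had an unadjusted p under 0.05; no other named axoneme gene crossed that level. The count of all genes at an unadjusted p under 0.05, 42 in edgeR, was 172 with the replicate block, 84 with DESeq2, 94 and 149 with limma at pseudocounts 1 and 0.1, 146 with no filter, 92 at a mean CPM of at least 1, 11 without both libraries numbered 2 and 399 without both with the block, where 1 gene (Gdf1, chosen after its value was seen) had an adjusted p under 0.05. Leaving out 1 library at a time it ranged from 11 to 230. The axoneme count of 4 was 8 with limma at 0.1, where 149 of all genes reached this level. It was 0 to 5 leaving out 1 library at a time, where the count over all genes was 11 to 230.

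The sign of some log2 fold changes turned when libraries were left out. Over leaving out each library in turn, and both numbered 2, the lowest and highest values were Rsph1 -0.0157 to 2.34, Dnaaf5 -0.24 to 1.82, Cfap52 -0.29 to 1.93, Cfap70 -0.00432 to 0.96, Cfap36 -0.30 to 0.21, Cfap20 -0.27 to 0.0204, Dnah9 -0.20 to 1.29, Rsph10b -0.0600 to 1.16, Drc1 -0.00498 to 0.89, Tekt5 -0.71 to 0.57, Rfx2 -0.68 to 0.73, Rfx3 -1.32 to 3.33, Ttr -1.12 to 9.03, Clic6 -0.51 to 7.07 and Prox1 -0.998 to 2.33. Without both libraries numbered 2 and with the replicate block, the values that turned were Rsph1 -0.0453, Dnaaf5 -0.16, Cfap52 -0.21, Cfap70 -0.00347, Cfap36 0.0132, Rsph10b -0.0981, Tekt5 0.35, Rfx2 -0.65, Ttr -0.58 and Clic6 -0.19. With the replicate block and all libraries Rfx2 was -0.00238, and with limma at 0.1 it was -0.00817. The cause was not tested. Depth limits the low genes most, and 19 of the 57 did not pass the expression filter. The counts of mean FPKM and of groups that do not overlap without both libraries numbered 2 were added after seeing the data.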
